A study of Homo sapiens with 45 samples.

Results

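The first day of a motor neuron differentiation was compared with its starting point: the 3 libraries labelled day 1 were set against the 3 labelled day 0, across all genes, out of 45 libraries in the series. The study followed cells of H9, an established line of human embryonic stem cells, over 15 sampled days with 3 libraries per day. Before day 0 the cells were grown in N2B27 medium with the GSK3 inhibitor CHIR99021 (3 µM), basic FGF (5 ng/ml), the TGF-beta receptor inhibitor SB431542 (10 µM), the BMP receptor inhibitor DMH1 (2 µM) and, for the first 48 h, a ROCK inhibitor (10 µM). On day 0 they were dissociated with accutase and replated with 100 nM retinoic acid (RA) and 500 nM SAG, a Smoothened agonist that turns on the Hedgehog pathway. The ROCK inhibitor was given again for 48 h from plating, so the day 1 cells were in it, while the protocol lists it as already withdrawn before day 0. Day 0 carries the label control and day 1 the label RA and SAG. Between these days RA, SAG and the ROCK inhibitor came in, the GSK3, FGF, TGF-beta and BMP reagents were no longer listed, and the cells were lifted and replated, so the parts played by these steps cannot be told apart. All libraries come from a single cell line, and the replicates are called only bioreps, so p-values here measure the spread between these samples, which may be technical.

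RA enters cells, binds nuclear receptors of the RAR and RXR families on DNA and switches on target genes, among them enzymes that destroy RA. Hedgehog signalling frees the GLI factors, which in turn raise the feedback inhibitors PTCH1 and HHIP. Wnt and FGF signals hold tail bud progenitors in an uncommitted state, and in the embryo RA from the somites ends that state as cells join the spinal cord.

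Levels are given as library-scaled counts (CPM, read counts scaled to a common library size with TMM), library by library in the order of replicates 1, 2 and 3, or as mean ± SD (n = 3). For each gene written as rising or falling from 3 library values to 3 others, the test was passed and the libraries of the days did not overlap. Log2 changes are day 1 minus day 0 ± SE, and adjusted p-values come from edgeR's quasi-likelihood test with Benjamini-Hochberg adjustment over 19437 genes. The 6 libraries held 24735138 to 33952028 counts and 23176 to 23924 counted genes. The mitochondrial share of counts lay between 2.241% and 3.208% on day 0, and between 3.653% and 5.287% on day 1. Some RNAs that carry no long poly(A) tail differed between replicates. RN7SL2, the RNA of the signal recognition particle, stood at 18.4, 18.9 and 100.9 CPM on day 0 and at 22.4, 48.1 and 247.5 CPM on day 1, highest in replicate 3 of each day, and did not pass the test (adjusted p = 0.282). The sum over 59 clustered histone genes was 118.4, 117.4 and 87.5 CPM on day 0 and 256.6, 294 and 477.2 CPM on day 1, lowest in replicate 3 on day 0 and highest in it on day 1. Both were looked at after the values were seen. The labels call every library neural progenitor cells, but on day 0 the neural markers PAX6 and SOX1 lay at 0.212, 0.122 and 0.309 CPM and 2.6, 1.59 and 2.85 CPM. The tail bud markers NKX1-2 and CDX2 lay at 1041, 910.1 and 984 CPM and 497, 468 and 506 CPM, so the day 0 libraries carried these markers of neuromesodermal progenitors. Not every tail bud gene was high: TBXT lay far below NKX1-2 and CDX2, and WNT3A and CYP26A1 (mean 0.55 CPM) were low on day 0.

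The day changed most of the transcriptome. Of the 19437 genes tested, 11880 (61.1%) passed the test, 5743 higher (29.5%) and 6137 lower (31.6%) on day 1. At least 2-fold changes were called for 1995 higher genes (10.3%) and 2003 lower genes (10.3%), and at least 8-fold changes for 553 and 404. For 13181 genes (67.8%) the libraries of the days did not overlap. The median change over all genes was 0 and the median absolute change was 0.44 on the log2 scale. TMM scaling centres the bulk of genes near 0, so that median does not show that rises and falls balanced. The next day was quieter: from day 1 to day 2, 4336 genes (22.3%) passed, 1022 of them at least 2-fold against 3998 on the first day, and the median absolute change was 0.18. These comparisons share the day 1 libraries. Because so many genes moved, each count in a list is read against these shares, and no list was tested as a set. In bulk RNA, fewer cells of a type and less RNA per cell cannot be told apart.

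**Figure D1:**
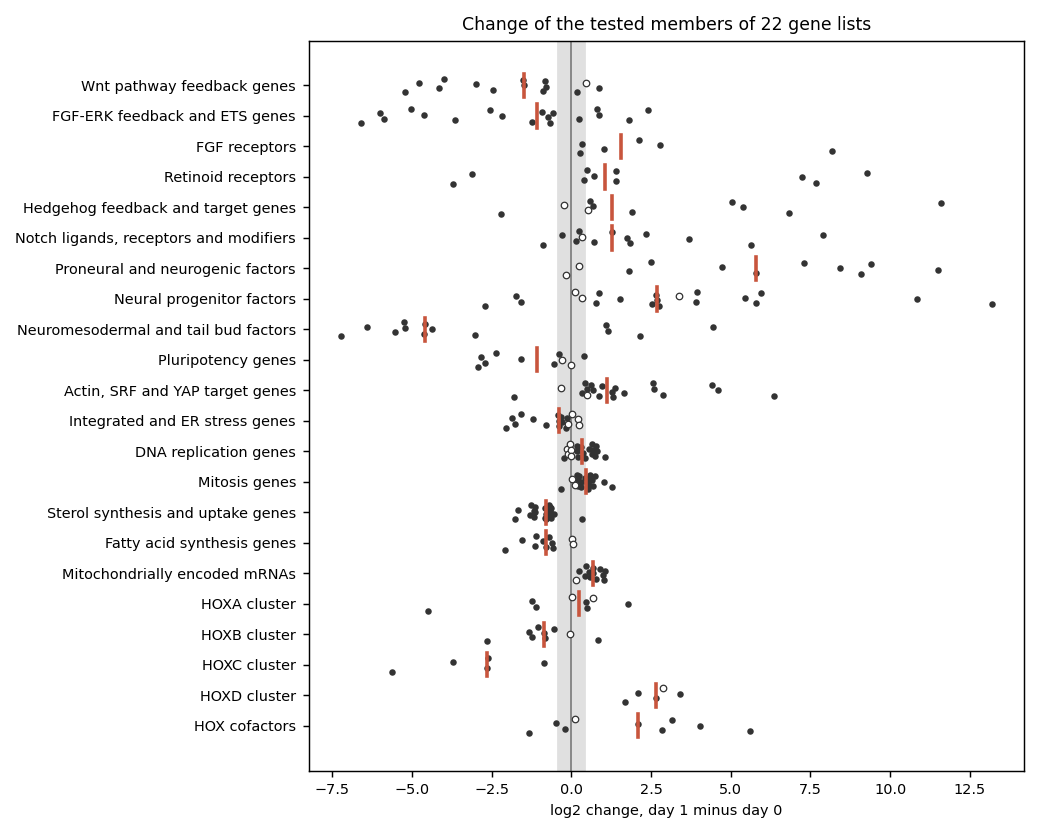
Log2 change from day 0 to day 1 (x axis) of the tested members of 22 gene lists (rows); filled points passed the test, open points did not, red bars mark list medians, the grey line the median of all 19437 genes and the grey band their quartiles (-0.43 to 0.44). Wnt and FGF feedback genes, tail bud factors and lipid genes lie mostly to the left, and proneural, Notch, actin and cell cycle genes mostly to the right.

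Genes of the RA pathway moved in both directions. Among 10 retinoid receptor and coregulator genes, 8 rose and 2 fell, with a median change of 1.06. RARB, the receptor gene best known as a direct RA target, lies on chromosome 3 (25174332 to 25597932 in GRCh38) and overlaps TOP2B. It rose from 0.212, 0.153 and 0.155 CPM on day 0 to 113, 110.3 and 108 CPM on day 1, so all day 1 libraries were far above all day 0 libraries (log2 change 9.28 ± 0.18, adjusted p = 1.7e-33). The RARB promoter as RefSeq places it (GRCh38.p14, plus strand, chr3:25428013-25428262) is printed because it holds a direct repeat of the receptor half-site with 5 bases between the copies, the DR5 element, shown in capitals.
RARB: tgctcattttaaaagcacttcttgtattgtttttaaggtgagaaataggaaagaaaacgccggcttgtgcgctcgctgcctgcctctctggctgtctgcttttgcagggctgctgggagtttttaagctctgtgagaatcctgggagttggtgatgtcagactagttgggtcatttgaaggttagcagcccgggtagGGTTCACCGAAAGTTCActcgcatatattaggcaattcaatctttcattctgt
The element begins 53 bases before the gene start. Searched on both strands in windows from 250 bases before to 50 after the start, the DR5 element was found in 22 of 27305 promoters (0.0806%) and in 9 of the 13137 promoters of genes tested. Of those 9, RARB, FSCN2 and LINC01900 were called at least 2-fold higher and BATF2 and COL24A1 at least 2-fold lower. A match describes the sequence and does not show binding.

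Within the RAR genes the most abundant member changed. RARG fell from 146, 155 and 153 CPM on day 0 to 18.3, 16.3 and 17.8 CPM on day 1, and RXRG fell from 10.3 ± 2.8 to 0.797 ± 0.21 CPM. RARA rose from 14.6 ± 1.1 to 38.9 ± 1.3 CPM. On the length-scaled TPM values the ordering of the RAR genes turned over: RARG was highest on day 0, at a mean of 103.8 TPM against 10.8 for RARA and 0.173 for RARB, and RARB was highest on day 1, at 73.5 TPM against 26.2 for RARA and 11.85 for RARG. The orphan receptors NR2F1 and NR2F2 (COUP-TF genes), which respond to RA in embryonal cells, went from 0.133 ± 0.1 to 27.9 ± 1.2 CPM and from 0.112 ± 0.017 to 17.6 ± 0.86 CPM. Without day 0 replicate 3 the change of NR2F1 was 8.45 in place of 7.67.

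Among 13 tested genes of retinoid uptake, storage and breakdown, 6 rose and 2 fell (median change 0.37). The genes that rose bind or remove retinoids. DHRS3, which reduces retinal back to retinol, rose from 9.21, 10.4 and 9.1 CPM on day 0 to 46.7, 44.1 and 49.8 CPM on day 1. The binding protein gene CRABP2 rose from 509.8 ± 56 to 1326 ± 28 CPM. CYP26A1, which destroys RA, rose from 0.151, 1.47 and 0.0309 CPM on day 0 to 11.9, 12.1 and 12.1 CPM on day 1. Its day 0 libraries differed widely, with replicate 2 well above the others, and its change of 4.44 became 6.98 without that library. The 2 genes that fell serve uptake and storage of retinol: STRA6, the retinol uptake receptor that overlaps CCDC33, fell from 152, 180.1 and 150.5 CPM on day 0 to 14.4, 14 and 14.1 CPM on day 1. LRAT, which esterifies retinol for storage, fell from 17.8, 19.3 and 12.1 CPM on day 0 to 0.431, 0.232 and 0.26 CPM on day 1. The RA-making enzymes were low on both days and did not pass the test, with ALDH1A2 at means of 0.45 to 0.277 CPM and ALDH1A3 at 0.541 to 0.52 CPM.

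**Figure D2:**
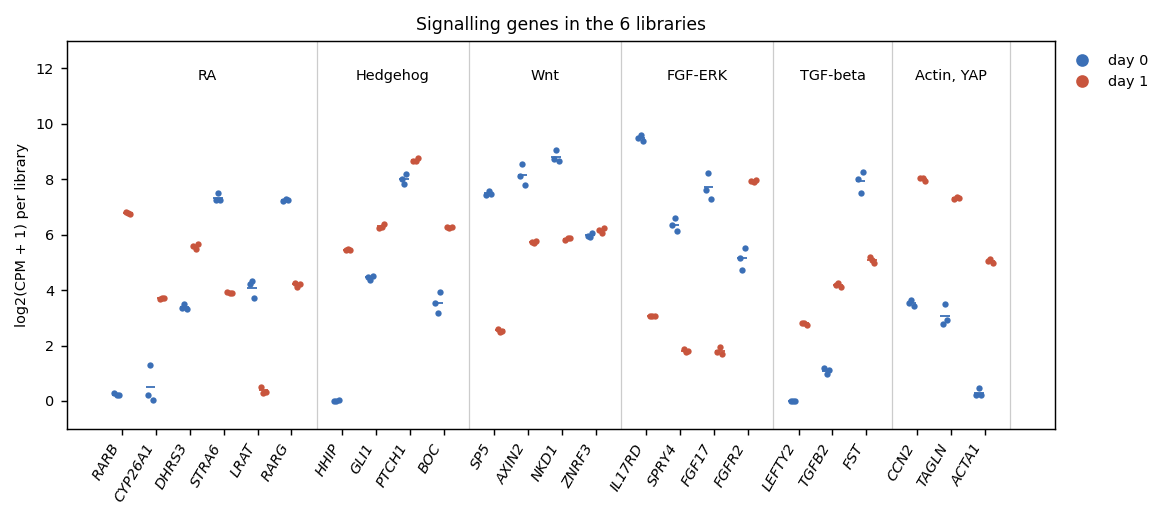
Level of 24 signalling genes in each of the 6 libraries, as log2(CPM + 1), with day 0 in blue and day 1 in red; each point is a library and each short line the mean of 3. For every gene shown except ZNRF3 and PTCH1 the days differ by at least 2-fold, and the day 0 points of CYP26A1, AXIN2, FGF17 and FST spread more than their day 1 points.

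Hedgehog feedback and target genes rose. Of 10 tested, 7 rose and 1 fell (median change 1.28). HHIP, a secreted inhibitor that binds Hedgehog ligands, had a single count over the day 0 libraries and 42.9, 44.3 and 42.1 CPM in the day 1 libraries, a ratio of 4235 with a 95% counting interval of 759.7 to 167300. GLI1, a transcriptional effector that overlaps ARHGAP9, rose from 21.1, 19.8 and 22.1 CPM on day 0 to 74.9, 76.8 and 82.1 CPM on day 1. PTCH1, the receptor that restrains Smoothened, was high before SAG was added, at 259.9, 225 and 292 CPM, and reached 405, 406 and 429.6 CPM (log2 change 0.67 ± 0.09). Its RefSeq promoter (GRCh38.p14, minus strand, chr9:95509267-95509516) is printed with the GLI motif GACCACCCA in capitals, here on the opposite strand of the sequence as written.
PTCH1: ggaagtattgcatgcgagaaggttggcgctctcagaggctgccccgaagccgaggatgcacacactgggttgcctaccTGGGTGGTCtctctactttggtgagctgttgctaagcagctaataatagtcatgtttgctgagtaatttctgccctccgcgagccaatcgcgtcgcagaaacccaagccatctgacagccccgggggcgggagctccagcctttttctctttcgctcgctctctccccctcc
The motif begins 172 bases before the start, and 68 of 27305 promoters (0.249%) hold it. Among promoters of genes called at least 2-fold higher the share was also 0.249% (3 of 1203).

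The ventral patterning genes of the list were at different stages. NKX6-2, which overlaps INPP5A, rose from 0.121, 0.0306 and 0.0929 CPM on day 0 to 9.16, 11.2 and 8.74 CPM on day 1, while NKX6-1 (means of 13.8 to 11.7 CPM) and OLIG2 (2.47 to 3.54 CPM) did not pass the test. FOXA2, a floor plate factor, fell from 1.28 ± 0.3 to 0.271 ± 0.058 CPM, a call lost without replicate 3 (adjusted p = 0.0846). The calls of NKX2-2 and NKX2-8, at day 1 means of 0.117 and 0.157 CPM, were lost when any of several libraries was left out. Among the 12 tested ligand, receptor and transducer genes, 6 rose and 4 fell (median change 0.49). The coreceptors that help cells bind Hedgehog all rose. BOC rose from 10.6, 7.95 and 14.2 CPM on day 0 to 77.5, 75.6 and 75.9 CPM on day 1, GAS1 went from 7.3 ± 0.59 to 49.7 ± 0.59 CPM and CDON from 27 ± 2.3 to 78.1 ± 0.24 CPM. The transducers SMO (147 to 206 CPM), GLI2 (83.5 to 118 CPM) and GLI3 (78.2 to 157 CPM) rose less, and SUFU, a negative regulator of GLI factors, fell from 57.6 ± 4.2 to 38.2 ± 0.21 CPM. SHH itself had 2 counts over the day 0 libraries and 0.199, 0.166 and 0.13 CPM on day 1 and did not pass.

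Wnt feedback genes fell. Of 14 tested, 11 fell and 2 rose, and the median change was -1.50. SP5, a transcription factor gene that beta-catenin induces directly (chromosome 2, 170715351 to 170718078), fell from 172, 189 and 178 CPM on day 0 to 5.11, 4.68 and 4.76 CPM on day 1 (log2 change -5.21 ± 0.10, adjusted p = 7.4e-42). The days were separated without overlap. Its RefSeq promoter (GRCh38.p14, plus strand, chr2:170715087-170715336) is printed with the TCF/LEF motif ATCAAAG in capitals, on the opposite strand of the sequence as written.
SP5: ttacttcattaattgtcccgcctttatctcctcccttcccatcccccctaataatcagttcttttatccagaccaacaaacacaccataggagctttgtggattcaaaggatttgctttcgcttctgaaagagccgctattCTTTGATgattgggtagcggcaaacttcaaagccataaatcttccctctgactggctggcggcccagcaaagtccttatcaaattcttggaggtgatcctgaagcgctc
The motif begins 109 bases before the start. It is common, with 721 of 27305 promoters (2.64%) holding it, and among 8 Wnt feedback promoters in the table only that of SP5 did.

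The ubiquitin ligase gene RNF43, which removes Frizzled receptors and overlaps SUPT4H1, fell from 33.4 ± 1.1 to 1.24 ± 0.29 CPM. AXIN2, a scaffold of the complex that degrades beta-catenin, fell from 276, 375 and 222 CPM on day 0 to 52.5, 51.5 and 54.2 CPM on day 1. NKD1, which binds Dishevelled, fell from 424, 534 and 401 CPM on day 0 to 54.7, 58 and 58.5 CPM on day 1. For both, the day 0 libraries spread widely while the day 1 libraries lay close together. CCND1, which also answers to other growth signals, rose from 264 ± 12 to 479 ± 4 CPM. ZNRF3, the partner of RNF43, was called higher (60.8, 60.2 and 65.9 CPM on day 0 and 71.3, 66.5 and 74.4 CPM on day 1). With limma on log2(TPM + 1) ZNRF3 was lower by 0.049 on the log2 scale and was not called (adjusted p = 0.524). Its call was also lost without replicate 1 (0.0709) and without day 1 replicate 3 (0.0511).

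Wnt ligands were exchanged. Of 12 tested, 6 rose and 4 fell. WNT2B, a canonical ligand that overlaps ST7L, rose from 0.575, 0.764 and 0.898 CPM on day 0 to 222, 234 and 232 CPM on day 1, and WNT4 reached 2.26, 2.52 and 2.64 CPM from 1 count in each day 0 library. The tail bud ligand WNT8A fell from 26.3 ± 5.8 to 0.564 ± 0.1 CPM and the noncanonical ligands WNT5B and WNT5A from 206 ± 48 to 10.6 ± 0.097 CPM and 47.8 ± 4.6 to 14.4 ± 0.4 CPM. WNT3A rose from 0.182, 1.9 and 0.0619 CPM on day 0 to 3.48, 2.96 and 3.16 CPM on day 1, so day 0 replicate 2 was near the day 1 level. The change of WNT3A was 2.16 with all libraries and 4.67 without that library, and the fit of days 0 and 1 alone did not call it (adjusted p = 0.063). Of 21 receptors and secreted inhibitors, 9 rose and 5 fell. The Frizzled gene FZD7 rose from 103, 75.8 and 136 CPM on day 0 to 696, 669.9 and 695 CPM on day 1. The secreted inhibitor SFRP2 rose from 109, 83.6 and 125 CPM on day 0 to 548, 508 and 511 CPM on day 1. FZD10 and the WNT5A receptor ROR2 fell from 233 ± 9.7 to 60.5 ± 2.1 CPM and 177 ± 22 to 45.9 ± 0.49 CPM.

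FGF-ERK feedback genes included the gene with the lowest log2 change among abundant protein-coding genes. Of 18 tested, 13 fell and 5 rose (median change -1.07). IL17RD, a membrane inhibitor of FGF receptors (chromosome 3, 57089982 to 57170306), fell from 726, 766 and 663 CPM on day 0 to 7.37, 7.47 and 7.36 CPM on day 1 (log2 change -6.60 ± 0.08, adjusted p = 4.5e-41). The ETS factors ETV5 and ETV4, which overlap DGKG and DHX8, fell from 146 ± 6.3 to 2.26 ± 0.29 CPM and 106 ± 4.9 to 1.81 ± 0.31 CPM. The Sprouty genes encode inhibitors of the same pathway. SPRY4 fell from 80.3, 96.3 and 68.8 CPM on day 0 to 2.65, 2.42 and 2.47 CPM on day 1. SPRY2 fell from 103, 109 and 90.8 CPM on day 0 to 3.88, 4.05 and 4.54 CPM on day 1. DUSP6, an ERK phosphatase often used as a readout, fell less, from 249 ± 7 to 106 ± 1.9 CPM (log2 change -1.23). MYC rose from 4.99 ± 0.45 to 26.1 ± 1.2 CPM and the ERK phosphatase DUSP5 from 21.2 ± 3.2 to 74.1 ± 2.1 CPM. On later days IL17RD climbed again, from 12.9 CPM on day 2 to 51.2 on day 4 and 84.5 on day 15, and SPRY4 reached 11.1 CPM on day 4.

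Of 14 tested genes of the FGF family, 6 fell and 4 rose, shares close to those over all genes. The 14 include FGF11, FGF12, FGF13 and FGF14, which are not secreted ligands. At least 2-fold changes were called for 5 that fell and 4 that rose, against 10.3% of all genes in each direction. FGF17 (chromosome 8, 22042398 to 22048809) fell from 193, 297 and 157 CPM on day 0 to 2.42, 2.82 and 2.21 CPM on day 1. FGF8, the other tail bud ligand of the same subfamily, fell from 42.7, 58 and 34.5 CPM on day 0 to 1.89, 1.76 and 1.86 CPM on day 1. All 6 tested FGF receptor genes rose, with a median change of 1.56. FGFR2 rose from 35, 25.8 and 45.5 CPM on day 0 to 243, 239 and 248 CPM on day 1, FGFR3 went from 23.8 ± 5.8 to 102 ± 3.9 CPM and FGFR1 from 830.5 ± 82 to 993 ± 9.4 CPM. FGFR1 stayed the highest of the 4 signalling receptors on TPM values, at 398.4 on day 0 and 454.8 on day 1, and FGFR2 passed FGFR4, going from 16.4 to 115.5 TPM against 32.9 and 40.7 for FGFR4. The coreceptor KLB had no counts on day 0 and 0.995, 1.13 and 1.21 CPM on day 1, a rise of at least 36.1-fold over a floor of 3 counts for the day 0 libraries together.

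Genes of the TGF-beta and BMP families did not move as groups. Of 15 tested Nodal and TGF-beta genes, 6 rose and 3 fell (median change 0). LEFTY2, a feedback inhibitor of Nodal, had no counts on day 0 and 6.04, 6.08 and 5.75 CPM on day 1, a rise of at least 195.2-fold. The ligand TGFB2 rose from 1.3, 0.948 and 1.18 CPM on day 0 to 17.2, 18.3 and 16.5 CPM on day 1. FST, which binds activin, fell from 259, 181 and 306 CPM on day 0 to 35.3, 33.2 and 30.7 CPM on day 1, and TGFBI, a secreted TGF-beta target, fell from 43.2 ± 5.3 to 5.49 ± 0.3 CPM. NODAL, TDGF1 and CER1 were too low to be tested. Of 13 BMP target genes, 5 rose and 4 fell: ID1 fell from 13.6 ± 0.38 to 5.53 ± 0.14 CPM and ID3 from 220.2 ± 6.9 to 109.5 ± 3.4 CPM, MSX1 from 61.8 ± 15 to 21.8 ± 2 CPM, and ID4 rose from 8.22 ± 0.75 to 27.1 ± 2.2 CPM. Among 14 BMP ligands and antagonists, 5 rose and 6 fell. BMP7 rose from 31.1 ± 5.1 to 132 ± 2 CPM, the antagonists GREM1 and CHRD fell from 21.5 ± 4.5 to 1.66 ± 0.4 CPM and 13.3 ± 0.76 to 2.04 ± 0.27 CPM, and the roof plate ligand GDF7 went from 3 counts over the day 0 libraries to 2.79, 2.96 and 2.08 CPM. Both kinds went both ways: the antagonist CHRDL1 was higher on day 1 (25.9 ± 2.5 to 54 ± 1.8 CPM). The ligands BMP2 and BMP4 had lower means on day 1 (10.15 to 6.15 CPM and 3.73 to 1.67 CPM).

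Tail bud factors fell and neural factors rose within the day. Of 13 tested neuromesodermal and tail bud factors, 9 fell and 4 rose, all at least 2-fold. NKX1-2 (chromosome 10, 124445239 to 124450184) fell from 1041, 910.1 and 984 CPM on day 0 to 25.8, 24.7 and 26.8 CPM on day 1. CDX2 fell from 490.4 ± 20 to 23.7 ± 0.36 CPM. TBXT, the Brachyury gene, fell from 21.9, 34.1 and 14.9 CPM on day 0 to 0.863, 1.29 and 0.736 CPM on day 1. EVX1, a homeobox gene of the tail bud, fell from 12.5, 25.8 and 6.28 CPM on day 0 to 0.133, 0.0996 and 0.0433 CPM on day 1; it fell by 7.22 on the log2 scale and by 6.55 without day 0 replicate 2. The 4 that rose were CYP26A1, WNT3A, SP8 (35.7 to 76.4 CPM) and GREB1 (139 to 308 CPM). Of 10 tested pluripotency genes, 7 fell and SALL4 rose (383 to 508 CPM); LIN28A, which blocks maturation of let-7 microRNAs, fell from 2922, 3146 and 2824 CPM on day 0 to 569.8, 583 and 576 CPM on day 1. The call of ZFP42 (2.52 to 0.326 CPM), a pluripotency marker, was lost with DESeq2 (adjusted p = 0.15).

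Of 20 neural progenitor factors, 14 rose, 12 of them at least 2-fold, and 3 fell. PAX6, SOX1 and the intermediate filament gene NES reached 407, 396 and 404 CPM, 132, 125 and 130.2 CPM and 2797, 3095 and 3126 CPM. IRX1, a regional factor of the neural tube, rose from 2.45, 2.17 and 3.96 CPM on day 0 to 124, 123 and 123 CPM on day 1, and SOX3 went from 11.8 ± 3 to 183 ± 5.2 CPM. SOX2, shared by both progenitor states, rose from 267, 235 and 309.9 CPM on day 0 to 465, 455 and 455 CPM on day 1. The 3 that fell were ZIC1, ZIC2 and ZIC5, zinc finger genes of the early neural plate, and ZIC2 fell from 203, 172 and 227 CPM on day 0 to 67.6, 67.9 and 67.7 CPM on day 1.

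Several Notch ligands and HES genes rose. Of 13 Notch pathway genes 10 rose and 2 fell, and of 11 HES and HEY genes 6 rose and 3 fell. DLL1, the ligand that newborn neurons display and that overlaps FAM120B, rose from 3.67, 4.34 and 4.55 CPM on day 0 to 211, 208 and 206 CPM on day 1. DLL4 reached 16, 14.6 and 15.6 CPM, DLL3 went from 4.94 ± 1.8 to 64.5 ± 1.1 CPM and JAG1 from 49.6 ± 1.6 to 249 ± 4.2 CPM, while JAG2 fell from 6.14 ± 0.75 to 3.31 ± 0.23 CPM. HES5 had 1 count over the day 0 libraries and 132, 126 and 136 CPM on day 1. HES4 rose from 0.636, 0.642 and 0.65 CPM on day 0 to 24.3, 25.7 and 23.7 CPM on day 1. HES7, the oscillating repressor of the presomitic mesoderm, fell from 3.21, 8.96 and 2.17 CPM on day 0 to 0.431, 0.365 and 0.433 CPM on day 1. HES7 fell by 3.54 on the log2 scale, and without day 0 replicate 2, its highest library, it fell by 2.71. Of 11 proneural factors 9 rose and none fell, and the other two did not pass. NEUROG2, which drives neurogenesis in the ventral cord, rose from 0.545, 0.459 and 0.96 CPM on day 0 to 102, 104 and 103 CPM on day 1.

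Pan-neuronal genes did not follow the proneural factors. Of 18 tested, 4 rose and 7 fell. STMN2, a microtubule regulator of growing axons, was abundant before differentiation and fell from 259, 254 and 236 CPM on day 0 to 6.04, 6.67 and 6.27 CPM on day 1. It rose again to 193 CPM on day 4 and 602 CPM on day 15. GAP43, a growth cone protein, fell from 51.1 ± 4 to 7.71 ± 0.22 CPM, DCX rose from 13.9 ± 0.62 to 48.7 ± 0.29 CPM, and the neuronal RNA-binding gene ELAVL3 did not pass (4.03 to 5.3 CPM).

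Markers of other cell types were mostly low. Of 13 paraxial mesoderm genes 7 could be tested, 3 fell and MEOX1 rose (0.0922 to 1.65 CPM); MSGN1, MESP1 and MESP2 were too low, and TBX6 fell from 1.28 ± 0.8 to 0.172 ± 0.042 CPM, by 2.91 on the log2 scale and by 2.27 without day 0 replicate 2. Of 6 tested genes of intermediate and lateral mesoderm only LHX1 rose (0.0102 to 0.311 CPM), and this call was lost with limma on log2(TPM + 1) (adjusted p = 0.053). Among 10 endoderm and endothelium genes 6 rose and 3 fell. FOXA1, also a floor plate factor and overlapping TTC6, rose from 0.0606, 0.0611 and 0.0309 CPM on day 0 to 16.3, 14.6 and 15.3 CPM on day 1. TEK, the receptor of angiopoietins, rose from 22.4, 18.9 and 21.9 CPM on day 0 to 61, 60.9 and 62 CPM on day 1, whereas KDR did not pass (0.366 to 0.483 CPM) and SOX17 was not tested. Of 8 surface ectoderm genes 5 fell and none rose; the epithelial keratin gene KRT18 fell from 191 ± 30.4 to 54 ± 1.5 CPM, and TFAP2A lay near 0 on both days. Among 10 genes of neural crest or roof plate, 5 fell and 2 rose, the latter being the roof plate genes LMX1A (0.0204 to 3.24 CPM) and GDF7. The crest marker SOX10 lay at means of 0.562 to 0.0255 CPM, and its call was lost with DESeq2 (adjusted p = 0.263).

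Regional factors of the brain went both ways. Of 12 tested fore-, mid- and hindbrain factors 5 fell and 3 rose. PAX2 fell from 28 ± 9.2 to 0.54 ± 0.16 CPM and GBX2 from 65 ± 11 to 16.3 ± 0.73 CPM. FEZF2, a forebrain factor (chromosome 3, 62369681 to 62374324), had no counts on day 0 and 29.3, 26.3 and 29.1 CPM on day 1, a rise of at least 919.9-fold. OTX2, SIX3, RAX and EMX2, other genes of the forebrain, were too low to be tested.

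HOX genes, the positional code of the trunk, split by cluster. In HOXC all 5 tested genes fell (median change -2.66). In HOXD 4 of 5 rose and HOXD9 did not pass, with a median change of 2.65, or 2.09 with HOXD9 at its lower bound. In HOXB 7 of 9 fell and HOXB5 rose, and in HOXA 3 rose and 3 fell among 8. Genes of the same paralog group therefore went in opposite directions. HOXC4 fell from 64.8, 79.1 and 51.2 CPM on day 0 to 9.29, 11.2 and 10.5 CPM on day 1. HOXD4 rose from 6.97, 8.96 and 6.41 CPM on day 0 to 45.1, 47.6 and 47.2 CPM on day 1. HOXC6 fell from 13.8 ± 3.5 to 1.03 ± 0.29 CPM and HOXC8 from 20.3 ± 5.7 to 0.406 ± 0.022 CPM. The call of HOXC5 was lost in the fit of days 0 and 1 alone (adjusted p = 0.0849). HOXC genes overlap each other in the annotation, as do HOXD3 and HOXD4, so their levels are uncertain, and the counts' strand setting is not given in the sources used here.

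**Figure D3:**
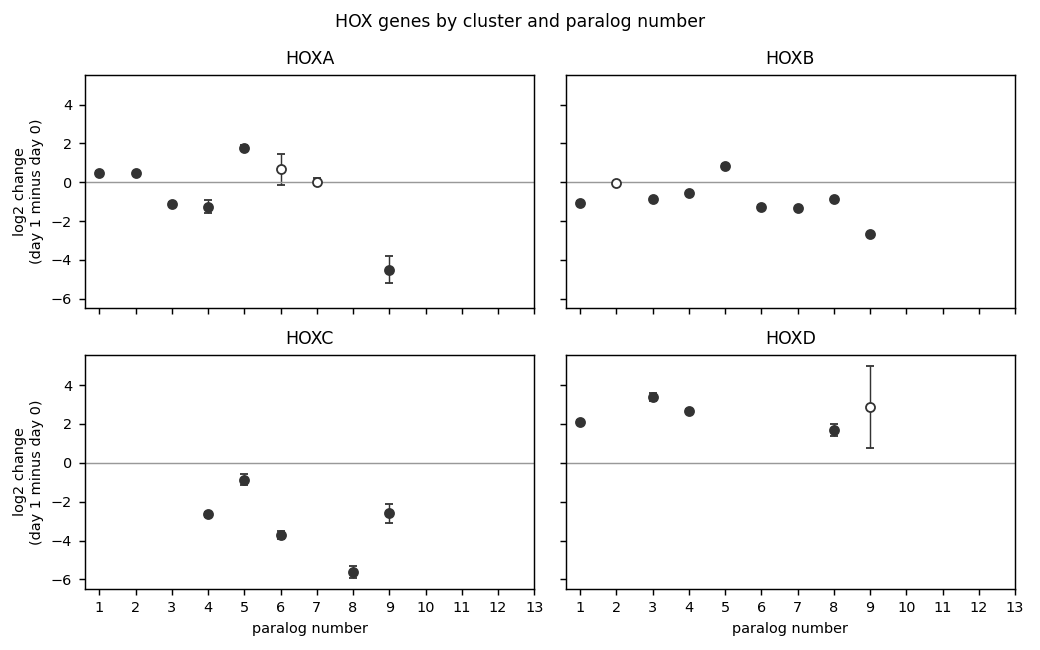
Log2 change from day 0 to day 1 (y axis, with SE bars) of the tested HOX genes by paralog number (x axis) in the 4 clusters; filled points passed the test and open points did not. All HOXC points lie below 0 and all HOXD points above it, and in HOXA and HOXB the paralog 5 genes rose while the paralog 9 genes had the lowest changes.

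The paralog 5 genes rose in 2 clusters, HOXA5 from 1.53 ± 0.12 to 5.28 ± 0.21 CPM and HOXB5 from 14.3 ± 1.8 to 25.5 ± 0.15 CPM. Of the paralog 9 genes, HOXA9, HOXB9 and HOXC9 fell, and HOXD9 did not pass. HOXB9, the most abundant HOX gene on day 0 by TPM among those tested, fell from 854, 889 and 796 CPM on day 0 to 134, 134 and 133 CPM on day 1. HOXA9 fell from 0.727, 0.856 and 0.279 CPM on day 0 to 0, 0.0664 and 0 CPM on day 1. HOXA-AS3, an antisense RNA that spans HOXA3 to HOXA7, fell from 261, 307 and 210.5 CPM on day 0 to 3.25, 3.65 and 3.29 CPM on day 1, and reached 212 CPM on day 15. Of 9 cofactors that bind DNA with HOX proteins 5 rose, all at least 2-fold, and 3 fell. MEIS2 rose from 9.84, 6.94 and 14.7 CPM on day 0 to 175, 169 and 166 CPM on day 1. MEIS1 rose from 0.757, 0.581 and 0.867 CPM on day 0 to 36.9, 34.5 and 36 CPM on day 1, and PKNOX2 went from 22.4 ± 3 to 161 ± 2.1 CPM. MEIS3 was lower, going from 59 ± 2.8 to 23.6 ± 0.49 CPM.

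Genes of the actin cytoskeleton that serum response factor (SRF) and YAP control rose, in medium that held the ROCK inhibitor on day 1. Of 20 tested, 17 rose, 10 of them at least 2-fold, and only ARHGAP29 fell (16.7 to 4.8 CPM); the median change was 1.12. CCN2, a matricellular protein and common readout of YAP, rose from 10.7, 11.4 and 9.69 CPM on day 0 to 261, 264 and 245 CPM on day 1. Its relative CCN1 rose from 12.4, 12.3 and 12.4 CPM on day 0 to 74, 76.7 and 73.7 CPM on day 1. TAGLN, an actin-binding protein that overlaps PCSK7, rose from 5.88, 10.3 and 6.59 CPM on day 0 to 156, 163 and 161 CPM on day 1, TPM1 went from 55.2 ± 0.51 to 407 ± 11 CPM and AJUBA from 66.5 ± 1.8 to 395 ± 17 CPM. The actin genes ACTB and ACTG1 rose less (3572 to 4970 CPM and 2550 to 3225 CPM). The skeletal muscle actin gene ACTA1 (chromosome 1, 229431245 to 229434098), which was not on the list, rose from 0.151, 0.367 and 0.155 CPM on day 0 to 32, 33.5 and 30.9 CPM on day 1. Its RefSeq promoter (GRCh38.p14, minus strand, chr1:229434095-229434344) is printed with the SRF site, the CArG box, in capitals.
ACTA1: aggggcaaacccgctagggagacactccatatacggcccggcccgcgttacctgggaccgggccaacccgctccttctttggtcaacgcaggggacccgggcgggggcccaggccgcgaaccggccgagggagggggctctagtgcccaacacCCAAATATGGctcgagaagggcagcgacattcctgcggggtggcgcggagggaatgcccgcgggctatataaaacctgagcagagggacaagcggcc
The box begins 97 bases before the start, and this motif was added after the values were seen. It is found in 351 of 27305 promoters (1.29%), in 20 of 1203 promoters of genes called at least 2-fold higher (1.66%) and in 15 of 1375 of those at least 2-fold lower (1.09%).

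Of 16 immediate early genes, 6 rose and 5 fell, shares near those over all genes. At least 2-fold changes were called for 4 that rose and 3 that fell, against 10.3% of all genes in each direction. The AP-1 gene JUN rose from 1.06, 1.31 and 0.898 CPM on day 0 to 29.8, 32.3 and 29.4 CPM on day 1. FOSL2, another AP-1 gene, rose from 2.69, 2.75 and 3.56 CPM on day 0 to 34.9, 35.4 and 36.6 CPM on day 1. FOS and EGR1, which ERK signalling induces, fell from 2.69 ± 0.43 to 0.616 ± 0.29 CPM and 17.2 ± 4.3 to 3.81 ± 0.72 CPM, and the call of EGR3 was lost with limma on log2(TPM + 1) (adjusted p = 0.347). Of 27 basement membrane and integrin genes 13 rose and 9 fell. The basement membrane linker NID2, which overlaps RTRAF, rose from 84.7, 67 and 123 CPM on day 0 to 615, 613 and 615 CPM on day 1, while its relative NID1 fell from 211 ± 7.7 to 97.3 ± 2.6 CPM. The collagen-binding integrin ITGA2 rose from 2.45, 2.69 and 3.5 CPM on day 0 to 28.2, 27.1 and 27.8 CPM on day 1. ITGB8, which activates latent TGF-beta, rose from 3.21, 8.47 and 2.66 CPM on day 0 to 31.7, 30.7 and 29.2 CPM on day 1, and ITGB5 fell from 159 ± 1.6 to 45.2 ± 2.1 CPM. Without day 0 replicate 2 the change of ITGB8 was 3.38 in place of 2.68.

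Junction genes went both ways. Of 22 epithelial and mesenchymal genes, 7 rose and 10 fell. The tight junction gene CLDN6, which overlaps TNFRSF12A, fell from 221, 199.6 and 219 CPM on day 0 to 21.2, 22.1 and 22.3 CPM on day 1, and CLDN2, which overlaps MORC4 and RIPPLY1, had no counts on day 0 and 23.6, 20.1 and 24.8 CPM on day 1. CDH2, the neural cadherin, rose from 443 ± 17 to 606 ± 21 CPM and CDH6 from 49.2 ± 8.7 to 163 ± 4 CPM. E-cadherin (CDH1) was already low, at 1.09, 1.56 and 0.991 CPM on day 0, and fell further to 0.0288 ± 0.05 CPM on day 1. Among 20 ephrins and Eph receptors 7 rose and 5 fell. The receptor EPHA4 fell from 176, 188 and 161 CPM on day 0 to 32.2, 35 and 33.3 CPM on day 1, and the ligands EFNA5 and EFNB2 rose from 22.2 ± 1.3 to 76.5 ± 1.5 CPM and 66.3 ± 7.5 to 182 ± 1.7 CPM.

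Lipid synthesis genes fell together, mostly by less than 2-fold. Of 23 sterol synthesis and uptake genes 22 fell, 8 of them at least 2-fold, and PMVK rose (21.1 to 26.5 CPM); the median change was -0.80. INSIG1, a sterol sensor that is itself a target of the factor SREBP2, fell from 178, 169 and 174 CPM on day 0 to 51.1, 52.2 and 50.1 CPM on day 1. HMGCS1, which makes the precursor of mevalonate, fell from 1245, 1216 and 1229 CPM on day 0 to 531, 532 and 484 CPM on day 1. SREBF2, the gene of SREBP2, fell from 556 ± 24 to 382 ± 7.3 CPM. Of 11 fatty acid genes 9 fell and none rose. The desaturase SCD fell from 3461, 3575 and 3435 CPM on day 0 to 1196, 1198 and 1167 CPM on day 1. ACSS2, which makes acetyl-CoA and overlaps GGT7, fell from 91.9, 108 and 94.6 CPM on day 0 to 22.4, 22.6 and 25 CPM on day 1. Of 9 sterol efflux and LXR target genes 4 fell and 2 rose. The sterol exporter ABCA1 did not pass (14.8 to 14.7 CPM), APOE fell from 226 ± 26 to 79.9 ± 2.4 CPM, and MYLIP, which degrades the LDL receptor, rose from 4.87 ± 0.29 to 10.8 ± 0.29 CPM. SCD rose to 1505 CPM on day 2 and 2321 on day 10, and HMGCS1 to 560 and 1037.

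The glucose transporters were exchanged. SLC2A3 (chromosome 12, 7919230 to 7936275) fell from 1354, 1378 and 1188 CPM on day 0 to 74.1, 75.1 and 75.5 CPM on day 1. SLC2A1 rose from 312, 307 and 292 CPM on day 0 to 845, 847 and 864 CPM on day 1. On TPM values SLC2A3 led on day 0, at a mean of 874.7 against 182.6, and SLC2A1 led on day 1, at 505.5 against 49.7. Of 26 glycolysis and hypoxia genes 12 fell and 6 rose (median change -0.10). ALDOC, a brain aldolase, fell from 30.6 ± 0.46 to 6.04 ± 0.57 CPM and the enzyme ENO1 rose from 1606 ± 46 to 2244 ± 53 CPM. NDRG1, a gene that hypoxia and other stresses induce, rose from 2.13 ± 0.031 to 18.3 ± 0.66 CPM, while VEGFA did not pass (30.6 to 33.8 CPM).

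Mitochondrially encoded mRNAs were higher. Of 13, 12 rose and MT-ATP8 did not pass, with a median change of 0.68. MT-CO1, a subunit of cytochrome oxidase, rose from 4543, 4057 and 6099 CPM on day 0 to 8295, 12970 and 9414 CPM on day 1. MT-ND1, a subunit of complex I, rose from 1600, 1504 and 2210 CPM on day 0 to 2940, 4611 and 3225 CPM on day 1. Replicate 2 was the highest day 1 library and replicate 3 the highest day 0 library for both. The ribosomal RNA gene MT-RNR1 rose from 1264, 1179 and 1102 CPM on day 0 to 2604, 3871 and 6391 CPM on day 1, so its highest day 1 library was replicate 3, the library in which RN7SL2 and the histone genes were also highest. The part of RNA selection in this rise was not tested.

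Genes of amino acid and protein folding stress fell or did not pass. Of 17 genes of the integrated and endoplasmic reticulum stress responses 13 fell and none rose. Asparagine synthetase (ASNS) fell from 111, 148 and 88.8 CPM on day 0 to 38.1, 41.7 and 36.4 CPM on day 1, the glutathione-degrading enzyme CHAC1 fell from 5.86 ± 1.5 to 1.42 ± 0.4 CPM and the kinase-like regulator TRIB3 from 6.64 ± 1.2 to 1.93 ± 0.088 CPM. Of 13 heat shock genes 4 rose and 5 fell, none of them by 2-fold. Of 15 p53 target genes 8 fell and 2 rose, and CCNG1 fell from 592, 565 and 509 CPM on day 0 to 261, 249.8 and 207 CPM on day 1.

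Cell cycle genes rose by small amounts. Of 20 mitosis genes 17 rose and CDKN3 fell, with a median change of 0.45. Of 20 DNA replication genes 14 rose and SLBP fell, with a median change of 0.34, and the call of SLBP was lost with limma on log2(TPM + 1) (adjusted p = 0.153). MKI67, the antigen of cycling cells, rose from 479, 506 and 556 CPM on day 0 to 1212, 1223 and 1273 CPM on day 1, the kinetochore gene CENPF went from 560.5 ± 12 to 1147 ± 44 CPM and the ribonucleotide reductase gene RRM2 from 203 ± 12 to 423 ± 9.3 CPM. The replication clamp gene PCNA did not pass (327 to 321 CPM). Among cyclins D and CDK inhibitors 6 of 12 rose and 2 fell, and CCND2 went from 442 ± 7.8 to 721 ± 22 CPM, CDKN1B from 36.2 ± 0.64 to 47.1 ± 1 CPM and CDKN2D from 1.36 ± 0.18 to 5.17 ± 0.24 CPM.

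Of 20 DNA methylation and Polycomb genes 10 rose and 6 fell. JARID2, a Polycomb partner high in pluripotent cells, fell from 158, 167 and 158 CPM on day 0 to 28, 29.4 and 27.9 CPM on day 1, and the methyltransferase DNMT3B fell from 243 ± 12 to 82 ± 2.5 CPM. CBX7, a chromobox subunit, rose from 3.88, 3.36 and 4.33 CPM on day 0 to 26.2, 29.6 and 30.3 CPM on day 1. Among 14 imprinted growth genes 7 rose and 3 fell. H19 (chromosome 11, 1995176 to 2001470) and IGF2, neighbours that share an imprinting control region, both rose. H19, a noncoding RNA, rose from 3.67, 4.25 and 3.06 CPM on day 0 to 253, 270 and 289 CPM on day 1. IGF2, a growth factor gene that overlaps INS-IGF2, rose from 18.2, 23.1 and 20.6 CPM on day 0 to 212, 208 and 203 CPM on day 1. GRB10 fell from 205 ± 6.3 to 99.2 ± 2.7 CPM. The calls of DLK1 and MEG3 were lost without replicate 2 (adjusted p = 0.116 and 0.072).

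Other named genes lay outside the lists, chosen for a large change or for their abundance. RELN, a secreted glycoprotein that guides migrating neurons (chromosome 7, 103471784 to 103989516), rose from 0.333, 0.428 and 0.588 CPM on day 0 to 171, 173 and 178 CPM on day 1 and reached 1354 CPM on day 2. LRP2 (megalin), an endocytic receptor, rose from 6.33, 4.46 and 10.1 CPM on day 0 to 442, 473 and 467 CPM on day 1. ZBTB16, a zinc finger factor of progenitors, went from 0.908 ± 0.3 to 76.7 ± 3.4 CPM and LAMP5 from 0.826 ± 0.055 to 56.2 ± 2.2 CPM. The nonmuscle myosin gene MYH10, which was named for its abundance and overlaps NDEL1, rose from 662 ± 31 to 1881 ± 39 CPM. Among long noncoding RNAs, LINC03025 had no counts on day 0 and 11.9, 11.4 and 12.2 CPM on day 1, a rise of at least 386.4-fold. SOX2-OT, which spans SOX2, rose from 1.88 ± 0.31 to 31.1 ± 1.5 CPM, MIR217HG from 0.316 ± 0.048 to 16.2 ± 0.96 CPM and LINC00511 from 1.55 ± 0.38 to 14.5 ± 1.6 CPM. D21S2088E fell from 13.4 ± 1 to 0.0798 ± 0.087 CPM and OLMALINC from 29 ± 2 to 7.61 ± 0.35 CPM. FTX, a noncoding gene of the X inactivation centre, fell from 22.6 ± 0.5 to 7.6 ± 0.35 CPM.

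A small set of genes was high on day 1 alone among the first days. For 9 protein-coding genes with at least 10 CPM on day 1, the day 1 mean was at least 4 times that of day 0 and of day 2; this rule chose them, so their peak is a description. They were TTN and ACTA1 of skeletal muscle, ACTG2 of smooth muscle, FEZF2, BMP3, TMPRSS2, CA4, ATP6V1B1 and KLHDC7A. CA4, a carbonic anhydrase, rose from 2.36, 3.27 and 1.95 CPM on day 0 to 49.6, 52.6 and 51.6 CPM on day 1, with a mean of 11.9 CPM on day 2. TTN, the sarcomere gene that overlaps CCDC141, rose from 0.0303, 0.245 and 0.0309 CPM on day 0 to 12.6, 15.5 and 15.5 CPM on day 1, with 1.67 CPM on day 2. Its change of 7.10 was 8.72 without day 0 replicate 2. On length-scaled TPM values TTN was low, at a mean of 0.507 on day 1 against 35.25 for ACTA1. FEZF2 was at 3.98 CPM on day 2 and 0.0452 on day 4. TMPRSS2, a membrane serine protease, rose from 3.21, 4.71 and 3.62 CPM on day 0 to 22.2, 19.6 and 22 CPM on day 1, with 1.79 CPM on day 2. Of the 9, ACTG2 and BMP3 rose again in level later, ACTG2 to 46.6 CPM on day 10 and BMP3 to 7.03 CPM on day 15.

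**Figure D4:**
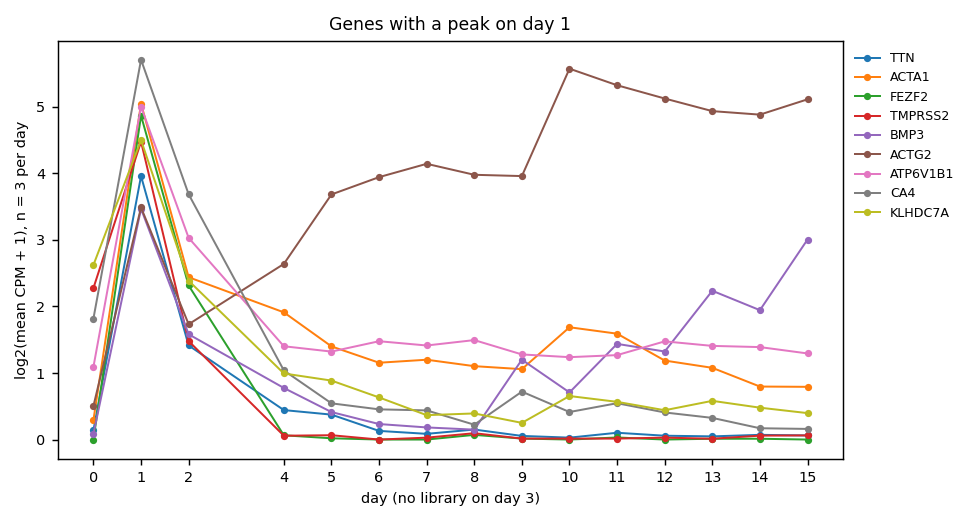
Mean level over 3 libraries, as log2(CPM + 1), of the 9 genes chosen for a peak on day 1, against the day of differentiation; day 3 is not analysed here. All stand highest on day 1 among days 0, 1 and 2, and ACTG2 (to 46.6 CPM on day 10) and BMP3 (to 7.03 CPM on day 15) rise again.

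More genes differed widely among the day 0 libraries than among those of day 1. Over genes with a mean of at least 10 CPM, the median coefficient of variation was 4.3% on day 0 and 3.64% on day 1, and it exceeded 20% for 139 genes on day 0 and 53 on day 1. On later days the number of such genes ran from 17 on day 2 to 433 on day 10, so day 0 lay within their range. Of the 139 genes, 64 were highest in replicate 2 and lowest in replicate 3, and 65 the reverse, so replicate 1 lay between the others for 129. Of the 64 genes highest in replicate 2, 45 fell on day 1, 16 rose and 3 did not pass. Of the 65 genes highest in replicate 3, 16 fell, 38 rose and 11 did not pass. Over all genes tested, 31.6% were called lower and 29.5% higher. The minimum of 10 CPM was set on day 0 and leaves out genes that rose from below it. A link between the replicate order and the direction of change was not tested. Among tail bud genes, TBXT, EVX1, CDX1, FGF17, FGF8 and AXIN2 were all highest in day 0 replicate 2 and lowest in replicate 3, and PAX2 stood at 26.1, 38 and 19.9 CPM. Genes with the opposite order included MEIS2, FGFR2, FZD7, NID2 and BOC. RXRG had this order too, although it fell on day 1. CYP26A1, WNT3A and HES7 were also highest in replicate 2, whereas CDX2 and NKX1-2 were not, so not every tail bud gene took part. On day 1, 39 of the 53 genes were lowest in replicate 1 and 30 were highest in replicate 3. The labels give no batch for these libraries, and what set the order was not tested.

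**Figure D5:**
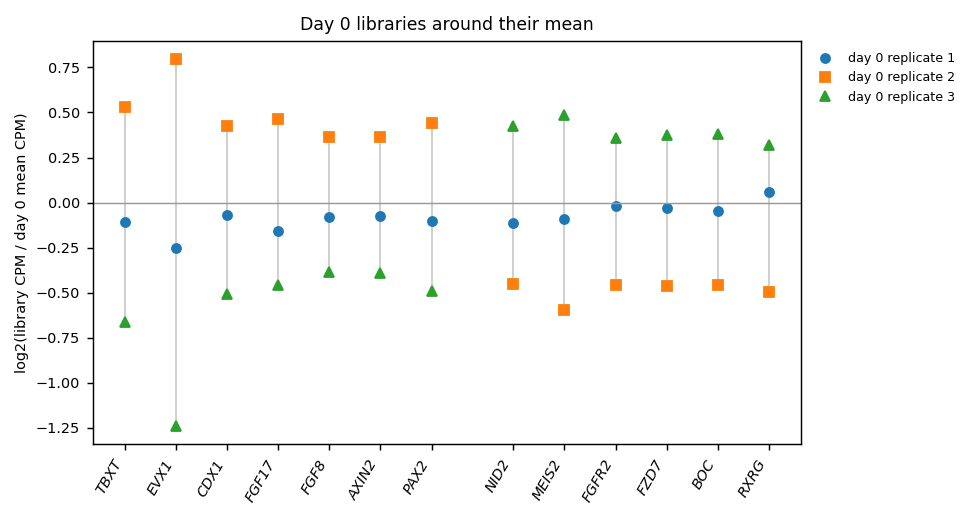
Log2 ratio of each day 0 library to the day 0 mean (y axis) for 7 genes that were highest in replicate 2 (left) and 6 that were highest in replicate 3 (right); squares are replicate 2, triangles replicate 3 and circles replicate 1. Replicates 2 and 3 lie on opposite sides of the mean for all 13 genes, which were chosen after their values were seen, and EVX1 has the widest range, from 6.28 to 25.8 CPM.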

How the data were processed

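The labels' protocols name a KAPA mRNA kit for the libraries. The tools named are bcl2fastq 2.20.0 for demultiplexing and RSEM for quantification, with GRCh38 as the build, per the submitters' processing notes. Overlapping genes have uncertain levels, because the strand setting, like the aligner, gene annotation and RSEM version, is not given in the sources used here. The deposited expected counts are estimates in which the authors, through RSEM, shared ambiguous reads among genes; 92.5% of the values were whole numbers, and all were rounded here. TPM values, also deposited, had been scaled by the authors for gene length and library total; they were used to compare levels between genes and in an alternative test. Gene types and positions come from GENCODE 29, and genes absent from it held 0.0276% of the counts.

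Counts were fitted with edgeR 4.0.16 (R 4.3.3): TMM, the default filter on low counts by day, a robust quasi-likelihood fit of all 45 libraries with day as a factor (30 residual degrees of freedom), and the contrast of day 1 minus day 0. Calls needed an adjusted p under 0.05. The median biological coefficient of variation in the fit was 6.09%. Permuting 3 against 3 libraries exactly gives no p under 0.1, and the fit therefore draws on a spread pooled over days and genes. Where a day had no counts of a gene, the fold is a bound that puts 3 counts in that day's libraries together, and with 1 to 3 counts it is a ratio with its 95% counting interval; both cover counting error only. Over all genes tested, correlations of deviations between same-numbered libraries of days 0 and 1 lay from -0.007 to 0.023. Such correlations cannot exclude that same-numbered libraries shared some handling.

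The comparison and the 49 gene lists (720 genes, 650 of them tested) were chosen with earlier results of these data known. Named genes were the list members; from protein-coding genes, the 12 strongest called rises and 12 strongest falls among those at 50 CPM or more on the higher day without overlap of the days; 6 rising and 6 falling noncoding RNA genes at 10 CPM or more; the 12 most abundant genes changed at least 2-fold; and the day 1 peak genes. Promoters came from RefSeq (GRCh38.p14), matched by symbol for 13137 genes tested. Alternatives were DESeq2 1.42.0, its size factors, no filter, a test for changes over 2-fold, a replicate block, days 0 and 1 alone, each library or replicate number left out, and limma 3.58.1 on log2(TPM + 1). The fit was tested on simulated counts in which few genes changed and all genes shared a common spread. That setting does not test the scaling or the calls where most genes move, as they did here. Results for some list members are not reported here.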

Additional observations from a re-analysis of the deposited data

How the results depend on the processing

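The counts of genes called on day 1 kept within 1.5 times under most alternatives. With each library or replicate number left out, 4964 to 5618 genes were called higher and 5365 to 5900 lower, and 1865 to 2094 and 1910 to 2019 were at least 2-fold. The test for a change of more than 2-fold called 1204 higher and 1219 lower, since it asks for a larger change. On log2(TPM + 1) with limma, 970 genes were called and at least 2-fold higher and 1000 lower; the added 1 TPM shrinks the change of low genes. DESeq2 called 5786 higher and 6061 lower. With a replicate block 5773 were higher and 6169 lower, and the labels do not state that the numbers pair the libraries. Of 533 called genes among the list members and named genes, 453 kept their call in each of these alternatives that tested them, except the test for a change over 2-fold. The fit of days 0 and 1 alone and limma on log2(TPM + 1) did not test all of these genes. The direction reversed only for ZNRF3, with limma on log2(TPM + 1) (-0.049 on the log2 scale). The median coefficient of variation was 5.43% on day 0 and 4.74% on day 1 with a minimum of 1 CPM, and 5.06% and 4.91% on TPM.

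Limits: 3 libraries per day of a single cell line were compared, and RA, SAG, the ROCK inhibitor, the end of the earlier reagents, replating and time changed together. Genes well below 1 CPM rest on few counts.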
